A study of Mus musculus with 10 samples.

Results

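The IgLON family is a small group of cell adhesion genes of the immunoglobulin superfamily, and its 5 members in the mouse are Lsamp, Ntm, Opcml, Negr1 and Iglon5. They were chosen by name, as the rows of the expression table whose Ensembl identifiers map to these symbols, so the family makes up 5 of the 29527 genes in the table. All 5 passed the filter on low values, as did 17268 genes in all. Lsamp was picked because earlier results of these same samples had shown it low in 1 genotype, so its differences between genotypes are given here as a description with no test, while its 4 relatives were tested.

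Bulk RNA-seq libraries, each from 1 mouse, were made from the dissected intermediate lobe (IL) of the pituitary at an age of 2 to 3 months. The 10 mice were 4 wild types (WT), 3 p27-/- mice and 3 p27-/-;Sox2+/- mice, called compound mutants below. p27 is a cyclin-dependent kinase inhibitor encoded by Cdkn1b, and the p27-/- mice carry a germline null allele of it, so every cell of the animal lacks the protein. The compound mutants also lack 1 copy of Sox2, whose expression p27 represses. Sox2 encodes a transcription factor of pituitary stem cells and, at lower levels, of melanotrophs, the endocrine cells of the IL. All 6 mutant mice are p27 null, and no group has the Sox2 loss alone. The labels and the study's own text and animal table give the Sox2 genotype as +/-. A legend in its supplement writes it as Sox2 fl/+, and no Cre is named for these libraries. The labels name neither litters nor batches, and the study used both sexes.

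IgLON proteins sit on the outer face of the plasma membrane, held there by a glycosylphosphatidylinositol (GPI) anchor, and carry a short row of Ig domains with no part inside the cell. They bind to themselves and to one another in pairs, and are best known in the nervous system, where they take part in neurite growth and synapse formation. Metalloproteinases can cut them from the surface, which ends adhesion and leaves a soluble ectodomain. The IL consists mainly of melanotrophs, endocrine cells that process pro-opiomelanocortin into melanocyte stimulating hormone, with a layer of SOX2-positive stem cells along the cleft.

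The 5 genes share a coding plan but little continuous coding sequence. This bears on whether short reads of coding bases could be assigned to the wrong member. Their coding sequences in the GENCODE vM1 transcripts are 1026 bases long for Lsamp, 1035 for Ntm, 1038 for Opcml, 1047 for Negr1 and 1011 for Iglon5. The stretch below encodes a part of the first Ig domain, has the most bases in common of any window of 60 coding bases, and lies within protein-coding exons. It starts at coding base 187 of Lsamp, 199 of Ntm and Opcml, and 190 of Negr1 and Iglon5, and capitals mark the 31 bases that all 5 genes share, in 5′ to 3′ direction on the coding strand.
Lsamp: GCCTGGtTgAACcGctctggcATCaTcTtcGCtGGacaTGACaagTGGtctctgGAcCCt
Ntm: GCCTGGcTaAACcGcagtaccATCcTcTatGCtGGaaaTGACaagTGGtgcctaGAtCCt
Opcml: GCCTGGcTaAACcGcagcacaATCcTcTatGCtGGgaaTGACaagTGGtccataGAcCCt
Negr1: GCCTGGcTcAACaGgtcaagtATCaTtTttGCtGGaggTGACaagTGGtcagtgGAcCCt
Iglon5: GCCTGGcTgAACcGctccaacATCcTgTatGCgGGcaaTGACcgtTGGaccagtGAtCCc

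Ntm and Opcml were the closest pair, with 69.6% of aligned coding bases identical and a longest identical run of 45 bases. Lsamp shared between 54.3% and 59.9% of aligned bases with its relatives, and no identical run was longer than 18 bases. Untranslated exon sequence was not compared, and it is most of the exon length (10.593 kb in all for Lsamp). The gene counts came from RSEM, which divides reads that match several genes, and such a division cannot be seen in the deposited values. It is therefore a limit, and within the coding bases above all for Ntm and Opcml.

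The genes also lie apart in the genome (GRCm38, RefSeq annotation). Lsamp (ENSMUSG00000061080) spans 2197 kb of the plus strand at chr16:39984254-42181679. Opcml (ENSMUSG00000062257, chr9:27790716-28925410, plus strand) and Ntm (ENSMUSG00000059974, chr9:28994749-29963269, minus strand) are neighbours whose 3′ ends face each other across 69.3 kb. Negr1 (ENSMUSG00000040037) lies at chr3:156561790-157316464 on the plus strand. Iglon5 (ENSMUSG00000013367) is the compact member, with 17.3 kb at chr7:43472901-43490211 on the minus strand. The RefSeq promoter table used here holds 2 start sites for Lsamp, 1548.5 kb apart, of which the first lies just inside the start of the span given above, and since the table holds 1 value per gene, transcripts from these starts cannot be told apart. The 5 letters ACAAT, or ATTGT on the other strand, are a form of the core that SOX proteins bind, and other forms were not searched for. These letters occur in neither 250-base window before the Lsamp starts, and they occur in 27.7% of 32851 such mouse windows.

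The deposited values are normalized gene counts on a log2 scale, and the transformation behind them is not named. A difference of 1 between groups is a doubling on that scale, where folds of low genes are made smaller. Cdkn1b lay between 8.39 and 8.85 in WT and between 8.04 and 8.27 in p27-/-, a difference of -0.43 (limma, adjusted p = 0.047), and fell by 0.72 in the compound mutants (adjusted p = 0.00854). The Cdkn1b value was thus lower in both null groups. A value per gene does not show which parts of a transcript were read, so whether the null mice hold a whole transcript was not tested. Sox2 was below all other samples in the 3 compound mutants, at 6.88 to 7.07 against 7.08 to 7.75, but its difference from WT, -0.46, missed the threshold (limma, adjusted p = 0.081). In p27-/- the Sox2 difference from WT was -0.17 (limma, adjusted p = 0.459), so no rise was seen in these bulk values. The study also saw no rise by RT-qPCR of the IL, while its in situ hybridization showed higher Sox2 in p27-/- melanotrophs and stem cells. Melanotroph markers were high in every library: Pomc ranged from 18.00 to 19.00 and the melanotroph transcription factor Pax7 from 11.45 to 11.97. The stem cell marker Gfra3 and the myelin genes Mog and Mag were below the filter, and Lhb was not matched in the table. Markers of the anterior and posterior lobe varied between mice, which is described with the genes it touches.

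Lsamp encodes the limbic system-associated membrane protein, which guides the wiring of limbic circuits and has been described as a candidate tumour suppressor. Its log2 value was 9.27, 8.81, 8.99 and 9.12 in the 4 WT mice. The 3 p27-/- mice had 8.31, 8.12 and 8.03, and the 3 compound mutants had 9.13, 9.08 and 8.99. Thus every p27-/- mouse was below every other mouse, and the compound mutants lay within the WT range. The mean was 9.05 ± 0.20 for WT (SD, n = 4). It was 8.15 ± 0.14 for p27-/- and 9.07 ± 0.07 for the compound mutants (SD, n = 3 each). On the deposited scale Lsamp in p27-/- was 0.538 of its WT level, and its level in the compound mutants was 1.01 times that of WT and 1.88 times that of p27-/-. In bulk RNA, fewer cells that express a gene and less RNA per cell cannot be told apart.

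**Figure D1:**
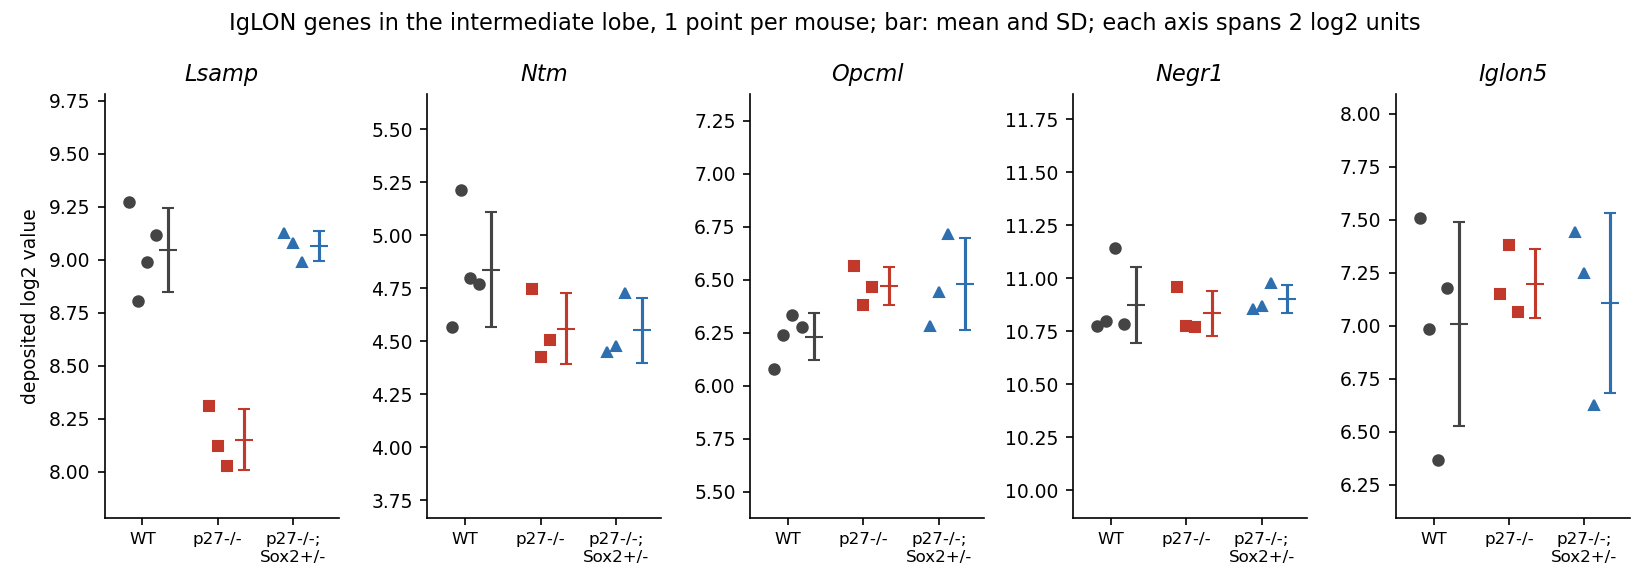
Deposited log2 values of the 5 IgLON genes, with 1 point per mouse for WT (circles, n = 4), p27-/- (squares, n = 3) and p27-/-;Sox2+/- (triangles, n = 3), and the mean and SD beside them; each axis spans 2 log2 units around the gene's own mean. Lsamp lies between 8.03 and 8.31 in p27-/- and between 8.81 and 9.27 in all other mice, while the groups of Ntm, Negr1 and Iglon5 overlap.

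A gap of 0.50 on the log2 scale separated the highest p27-/- mouse from the lowest of the other 7 for Lsamp. All 3 p27-/- samples lay below the other 7 samples for 441 genes, 2.55% of those tested. Among those with a gap at least as wide as that of Lsamp were Cgnl1 (a junction protein, gap 0.59) and Cntnap2 (a neuronal adhesion protein of the neurexin superfamily, 0.50). In the other direction, 1 gene, the phosphodiesterase gene Pde3a, had a gap of that size (0.53). These genes were named after their values were seen, and the gap uses the same values by which Lsamp was picked, so nothing is read from it beyond the description.

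For none of the 9 marker lists did the p27-/- mice lie wholly above or below the other 7 in the list's score. The score of the posterior lobe list (the mean log2 deviation of its 6 genes) spanned -0.39 to -0.12 in p27-/-, inside the WT range of -0.72 to 1.01, and that of the compound mutants spanned -0.80 to 0.80. With that score as a covariate the Lsamp difference between p27-/- and WT was -0.87, and with the anterior lobe score, an alternative added after seeing the data, it was -0.95. The melanotroph score was between 0.02 and 0.30 in p27-/-, and between -0.28 and 0.11 in the other 7 mice. Of the 6 melanotroph genes, Oacyl (0.77) and the prohormone convertase gene Pcsk2 (0.53) rose in p27-/- against WT, and no melanotroph gene passed the threshold in the other comparisons. Elsewhere in p27-/- against WT, 2 of 5 fibroblast genes, 1 of 5 endothelial genes and 1 of 6 anterior lobe genes fell, and 1 of 4 neuronal genes rose, with no call in the other 4 lists, beside 7.78% of all genes called in that comparison. In the compound mutants against WT, 1 of 5 stem cell genes, 1 of 6 anterior lobe genes and 1 of 5 endothelial genes fell, beside 2.71% of all genes, and no marker was called between the mutants. Only the posterior and the anterior lobe score were used as covariates, and the part of any marker list in the Lsamp values was not tested. With any 1 mouse left out, the Lsamp difference between p27-/- and WT was -0.97 to -0.82, and that between the mutants 0.85 to 0.99. Every p27-/- mouse lay below all others in the values by which Lsamp was picked, so the direction could not turn. These ranges are therefore a description.

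None of the 4 relatives passed the threshold in any comparison (limma, adjusted p below 0.05 over 17268 genes). Of all genes tested, 7.78% were called in p27-/- against WT, 2.71% in the compound mutants against WT and 0.145% between the mutants, and a count of 0 in 4 genes is near these shares. In the same order, 24.1%, 17.8% and 6.65% of all genes had an unadjusted p below 0.05, and none of the 4 relatives did. The 3 comparisons share samples, so their values are given side by side.

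**Figure D2:**
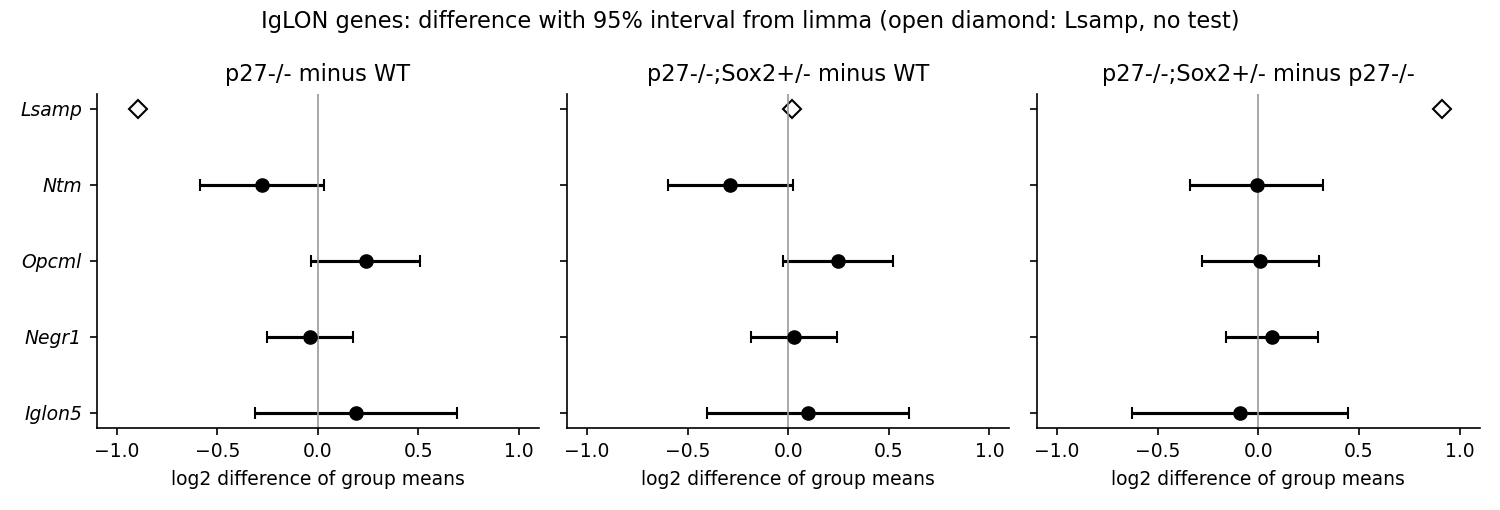
Difference of group means on the log2 scale for each IgLON gene in the 3 comparisons, with the 95% interval from limma (filled circles) for the 4 relatives and the difference alone for Lsamp (open diamond), which was not tested. All 12 intervals include 0, and Lsamp stands at -0.89, 0.02 and 0.91.

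Ntm encodes neurotrimin, which promotes or inhibits neurite growth depending on the neuron. Its log2 value was 4.57, 5.21, 4.80 and 4.77 in WT, 4.75, 4.43 and 4.51 in p27-/-, and 4.45, 4.48 and 4.73 in the compound mutants. The groups overlapped, and WT replicate 2 was the highest of all. The difference from WT was -0.28 in p27-/- (95% interval -0.59 to 0.03, limma adjusted p = 0.257) and -0.29 in the compound mutants (interval -0.60 to 0.02, adjusted p = 0.320). Without WT replicate 2 it was -0.15 in p27-/-. Between the mutants it was -0.01 (interval -0.34 to 0.32, adjusted p = 0.999). These intervals against WT reach down to 0.67 and 0.66 of the WT level, so the test does not show that Ntm was alike in the 3 genotypes.

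Opcml encodes an opioid-binding adhesion protein that is silenced in ovarian cancers. It measured 6.08, 6.24, 6.33 and 6.28 in WT, 6.57, 6.38 and 6.46 in p27-/-, and 6.28, 6.44 and 6.71 in the compound mutants. Every p27-/- mouse was thus above every WT mouse, which held for 10.2% of all genes tested. The differences from WT were 0.24 in p27-/- (95% interval -0.03 to 0.51, limma adjusted p = 0.268) and 0.25 in the compound mutants (interval -0.02 to 0.52, adjusted p = 0.326). Between the mutants the difference was 0.01 (interval -0.28 to 0.30, adjusted p = 0.999). Opcml in the compound mutants overlapped both other groups.

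Negr1, which encodes the neuronal growth regulator kilon and lies in a locus linked to human body weight, was the member with the highest values. In WT it was 10.78, 10.80, 11.14 and 10.78, in p27-/- 10.96, 10.78 and 10.77, and in the compound mutants 10.86, 10.87 and 10.98. Apart from WT replicate 3, all samples lay between 10.77 and 10.98. Its intervals were the narrowest of the family. The difference was -0.04 in p27-/- against WT (95% interval -0.25 to 0.17, limma adjusted p = 0.850), 0.03 in the compound mutants against WT (interval -0.19 to 0.24, adjusted p = 0.920) and 0.07 between the mutants (interval -0.16 to 0.30, adjusted p = 0.985). A change of Negr1 by more than 0.30 in either direction lay outside all of these intervals.

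Iglon5 encodes a protein that is the target of autoantibodies in a human sleep and movement disorder. It ranged from 6.37 to 7.51 in WT, with 7.51, 6.98, 6.37 and 7.18 in the single mice, and was 7.15, 7.38 and 7.07 in p27-/- and 7.44, 7.25 and 6.63 in the compound mutants. The spread within groups exceeded the distance between them. The differences were 0.19 in p27-/- against WT (95% interval -0.31 to 0.69, limma adjusted p = 0.659), 0.10 in the compound mutants against WT (interval -0.40 to 0.60, adjusted p = 0.872) and -0.09 between the mutants (interval -0.63 to 0.44, adjusted p = 0.995). The intervals reach up to 0.69 and down to -0.63, so Iglon5 is not shown to be alike in the 3 genotypes.

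The members differed in how much they varied between mice of 1 genotype. The SD within genotypes was 0.40 for Iglon5, larger than that of 98.2% of the tested genes, and 0.21 for Ntm, larger than that of 81.1%. For Lsamp it was 0.15, for Opcml 0.15 and for Negr1 0.13, close to the median of 0.15 over all tested genes.

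Levels of different genes can be set beside each other only per length, so the linear value of each gene was divided by its exon length, 10.593 kb for Lsamp, 8.079 for Ntm, 13.12 for Opcml, 6.725 for Negr1 and 2.619 for Iglon5. On the log2 scale per kb, Negr1 led in WT with 8.12, followed by Lsamp with 5.64 and Iglon5 with 5.62, and then by Opcml with 2.52 and Ntm with 1.82. Lsamp and Iglon5 overlapped in WT and in the compound mutants and could not be ordered there. In p27-/- Lsamp, at 4.62 to 4.90, lay below Iglon5, at 5.68 to 5.99, with no overlap. By this length the other neighbours in the order did not overlap in any genotype, so Negr1 was first and Opcml and Ntm were the last in all. Per kb of the longest transcript (3.022 kb for Ntm and 6.676 kb for Opcml), Opcml (3.34 to 3.59) and Ntm (2.97 to 3.62) overlapped in WT and could not be ordered there, while the rest of the order was as given. Since Lsamp was picked for being low in p27-/-, this change of rank is a description as well.

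Of the 14854 tested genes with a symbol, those with the pattern most like Lsamp over the 10 samples by Pearson correlation were Crhr1 (r = 0.946), Nhsl2 (0.940), Smyd3 (0.940), Alpk2 (0.931), 2900055J20Rik (0.929), Plxdc2 (0.925), Gas2 (0.922) and Camk2a (0.920). Crhr1 encodes the receptor for corticotropin-releasing hormone, Smyd3 a lysine methyltransferase, and Camk2a a subunit of a calcium-dependent kinase abundant in neurons. Crhr1 had a mean of 5.55 in WT, 4.75 in p27-/- and 5.41 in the compound mutants. Like Lsamp, all 8 genes had a lower mean in p27-/- than in both other groups, which their choice by correlation with Lsamp largely fixes.

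The most opposite genes were Sp8 (r = -0.951), Slc4a7 (-0.934), Spc25 (-0.932) and Prrc1 (-0.928). Sp8 encodes a transcription factor, Slc4a7 a sodium bicarbonate cotransporter, and Spc25 a kinetochore protein of dividing cells. Spc25 had a mean of 4.37 in WT, 4.99 in p27-/- and 4.49 in the compound mutants. Once the genotype means were removed, the correlation with Lsamp was -0.91 for Slc4a7, 0.85 for Nhsl2 and 0.50 for Crhr1, so part of the likeness is the shared step between genotypes. These correlations are over 10 samples that share their libraries, and the genes were taken from the extremes of all tested genes, so no p is given.

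**Figure D3:**
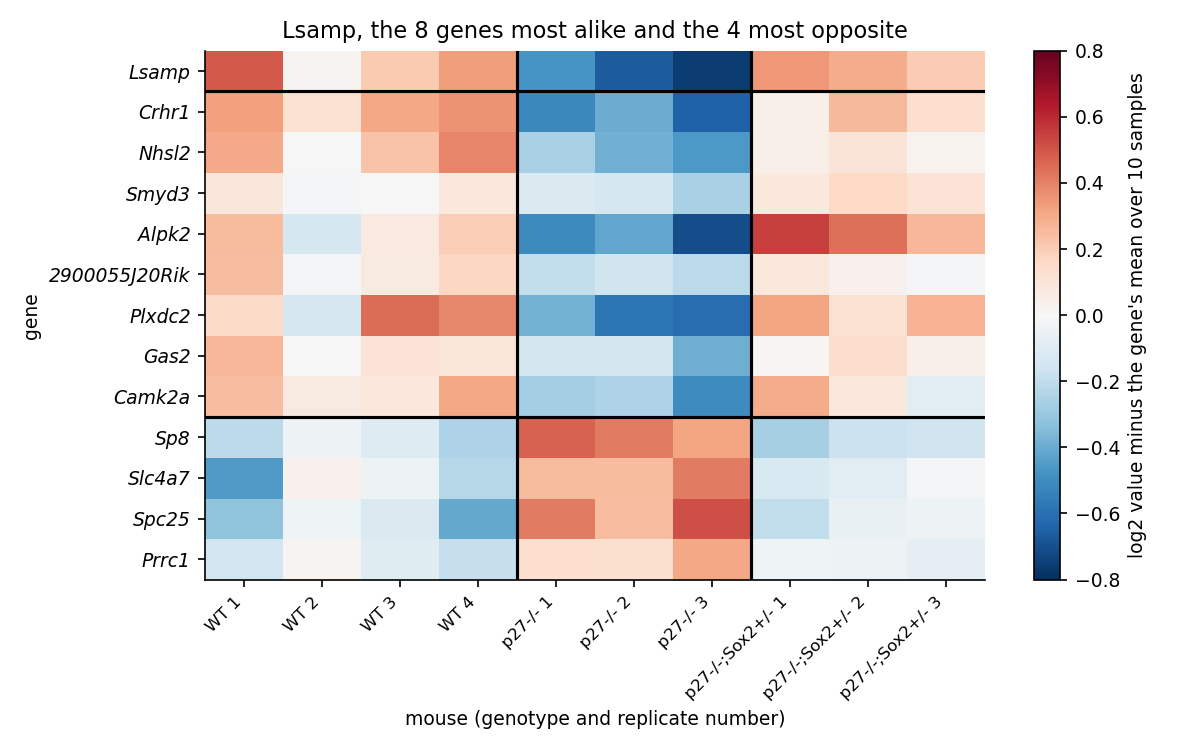
Heat map of Lsamp, the 8 genes most alike and the 4 most opposite to it (rows, parted by horizontal lines) in each mouse (columns, parted by genotype), with colour for the log2 value minus the gene's mean over the 10 samples. The 3 p27-/- columns are blue for Lsamp and the 8 alike genes (Crhr1 r = 0.946) and red for the 4 opposite genes (Sp8 r = -0.951). The choice of these genes by correlation with Lsamp largely fixes this.

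The relatives had other genes nearest to them in pattern. For Ntm they were Gpc4 (r = 0.976), which encodes a GPI-anchored glypican, 9330182L06Rik (0.947) and the sorting receptor gene Sorl1 (0.945). Those of Opcml were Rpp30 (0.964), Nampt (0.961), which encodes an enzyme of NAD synthesis, and Slc25a32 (0.958). For Negr1, Lclat1 (0.963), Ppp1r1a (0.950) and the gap junction gene Gjb6 (0.947) came first, and for Iglon5, Snrnp35 (0.964), Cybasc3 (0.946) and Cmtm6 (0.945). No gene was shared between these short lists.

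Ntm moved with the markers of anterior lobe hormone cells, which can be carried into the dissected IL. The score of the anterior lobe list (mean log2 deviation of 6 genes, among them Gh and Prl, which encode growth hormone and prolactin) was highest in WT replicate 2 (1.88), where Ntm was also highest (5.21), and lowest in p27-/- replicate 2 (-1.01), where Ntm was lowest (4.43). Over the 10 samples Pearson's r was 0.948 (permutation p = 8e-05, adjusted p = 0.00336 over 42 relations) and Spearman's rho 0.915 (permutation p = 0.00052, adjusted p = 0.0218). Without the 2 samples farthest from the median score r was 0.830, and it was 0.959 with the genotype means removed. With each mouse left out in turn it stayed at 0.867 or more. With the score as a covariate, added after seeing the data, the Ntm difference from WT was -0.13 in p27-/- (limma, adjusted p = 0.462) and -0.05 in the compound mutants (adjusted p = 0.835).

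Among the other 41 relations of the 4 relatives with each other and with 9 marker lists, none passed an adjusted p of 0.05. By Pearson's r the strongest of them was the negative relation of Ntm with the melanotroph score (r = -0.797, permutation p = 0.00322, adjusted p = 0.0676), whose rho was -0.733 (permutation p = 0.0198, adjusted p = 0.208). By Spearman's rho it was that of Ntm with the stem cell score (rho = 0.855, permutation p = 0.00281, adjusted p = 0.0590), whose r was 0.770 (permutation p = 0.00888, adjusted p = 0.110). Negr1 and Iglon5 had r = -0.784 (permutation p = 0.0105, adjusted p = 0.110) and rho = -0.515 (permutation p = 0.134, adjusted p = 0.562). That relation rested on WT replicate 3 and p27-/-;Sox2+/- replicate 3, the mice with the highest Negr1 and lowest Iglon5, and r was -0.07 without the 2 samples farthest from the median of Negr1.

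**Figure D4:**
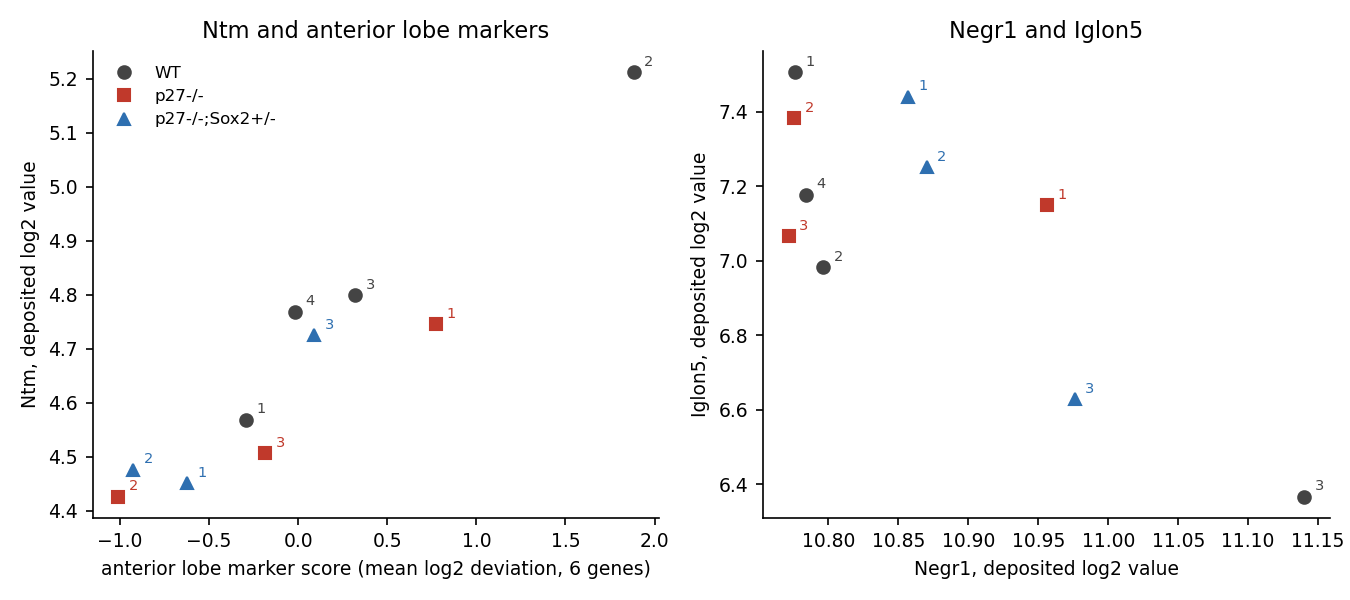
Left, Ntm (log2 value) against the anterior lobe marker score (mean log2 deviation of 6 genes) and, right, Iglon5 against Negr1 (log2 values), with 1 point per mouse labelled by its replicate number for WT (circles), p27-/- (squares) and p27-/-;Sox2+/- (triangles). Ntm rises with the score (r = 0.948), up to WT replicate 2 at 1.88 and 5.21, whereas the relation on the right (r = -0.784) rests on the 2 mice at the lower right.

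The genes next to the members were read as well, as the nearest protein-coding gene on each side. Gap43, which encodes a growth cone protein of neurons, lies 66.9 kb beyond the end of Lsamp. It was 5.93, 5.83, 5.90 and 5.86 in WT, 6.83, 6.38 and 6.89 in p27-/-, and 5.92, 6.44 and 6.71 in the compound mutants. Gap43 thus rose in p27-/- by 0.82 (SE 0.17, limma adjusted p = 0.0133), the opposite direction to Lsamp, with no overlap with WT. Its call was lost without p27-/- replicate 1 or without replicate 3, with adjusted p up to 0.077. The difference was 0.48 in the compound mutants against WT (adjusted p = 0.164) and -0.35 between the mutants (adjusted p = 0.845). On the other side of Lsamp, at 957 kb, Igsf11 had differences of -0.57 and -0.65 from WT in p27-/- and in the compound mutants (limma, adjusted p = 0.085 and 0.089).

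Beyond Negr1, at 218 kb, Zranb2, which encodes a splicing factor, rose in p27-/- by 0.42 (SE 0.09, limma adjusted p = 0.0174). That call was lost without p27-/- replicate 1 or 2, with adjusted p up to 0.080. Snx19, Lrriq3 and Vsig10l, next to Ntm, Negr1 and Iglon5, did not pass in any comparison. Spata19, next to Opcml, was below the filter, and Gm52229 inside Lsamp and 4931406B18Rik next to Iglon5 were not matched in the table.

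IgLONs belong to a wider set of Ig superfamily adhesion genes, of which 42 were listed and 38 passed the filter. In p27-/- against WT, 1 of them rose and 1 fell, 5.26% of the list, beside 7.78% of all genes. Nrcam, a neuronal adhesion gene, fell by 0.64 (SE 0.12, limma adjusted p = 0.00827), from 9.68 to 10.05 in WT to 9.19 to 9.32 in p27-/-. Cadm3, which encodes a synaptic cell adhesion molecule, rose by 0.79 (SE 0.16, adjusted p = 0.0120), and its call was lost without p27-/- replicate 1 or 3 (adjusted p up to 0.069). The list's median difference was -0.05, and that of all tested genes 0.01.

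In the compound mutants against WT, 2 genes of that list rose and none fell, again 5.26%, beside 2.71% of all genes. Cntn4, a GPI-anchored contactin, rose by 0.80 (SE 0.17, limma adjusted p = 0.0223), from 6.72 to 7.49 in WT to 7.64 to 8.12. Nectin1, which encodes a junction protein, rose by 0.45 (SE 0.11, adjusted p = 0.0498). The Cntn4 call was lost without WT replicate 4 or without replicate 2 or 3 of the compound mutants (adjusted p up to 0.093). That of Nectin1 was lost without 9 of the 10 mice, each left out alone (adjusted p up to 0.171). Between the mutants none of the 38 was called by limma, beside 0.145% of all genes. An unadjusted p (limma) below 0.05 was held by 14 of the 38 in p27-/- against WT, by 12 in the compound mutants against WT and by 1 between the mutants. For all genes tested these shares were 24.1%, 17.8% and 6.65%. The 1 gene between the mutants was Cntn4, with a difference of 0.63.

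The enzymes that build and attach the GPI anchor were measured as a further list. All 30 passed the filter, and none was called by limma in any comparison, beside 7.78%, 2.71% and 0.145% of all genes in p27-/- against WT, in the compound mutants against WT and between the mutants. In the same order, 3, 2 and 1 of the 30 had an unadjusted p below 0.05, beside 24.1%, 17.8% and 6.65% of all genes tested. Their differences ran from -0.25 to 0.40 in p27-/- against WT, with a median of 0.08, and from -0.27 to 0.13 between the mutants, with a median of -0.05.

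The last list held 15 genes for the release of surface proteins, namely metalloproteinases, their inhibitors, and enzymes that can cut the anchor. Like the lists above, this list was chosen with earlier results of these data known. In p27-/- against WT, 3 of the 15 genes fell and 1 rose, 26.7% of the list beside 7.78% of all genes. Timp3, a matrix-bound inhibitor of metalloproteinases, was 11.52, 11.02, 11.52 and 11.39 in WT and 10.42, 10.40 and 10.23 in p27-/-, and fell by 1.01 (SE 0.13, limma adjusted p = 0.000875). Another inhibitor gene, Timp4, fell by 0.60 (SE 0.14, adjusted p = 0.0216). The calls of the membrane-type metalloproteinase genes Mmp15 (-0.52, SE 0.14, adjusted p = 0.0370) and Mmp24 (0.43, SE 0.12, adjusted p = 0.0392) were lost on leaving out 6 and 7 of the mice, each alone. Adam10 (0.15) and Adam17 (0.08), the main sheddases, were not called.

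Both of these inhibitor genes also fell in the compound mutants. Timp3 was 10.58, 10.29 and 10.76 there and fell by 0.82 against WT (SE 0.13, limma adjusted p = 0.00729), and Timp4 fell by 0.65 (SE 0.14, adjusted p = 0.0249). These 2 genes were 13.3% of the list, beside 2.71% of all genes. The other inhibitor genes, Timp1 (-0.05), Timp2 (-0.27) and Reck (0.04), were not called there. Without replicate 2 of the compound mutants both calls were lost (Timp3, adjusted p = 0.051), and that of Timp4 was also lost without WT replicate 4 or replicate 3 of the compound mutants. In p27-/- the Timp4 call was lost without WT replicate 4 or p27-/- replicate 2 or 3, and that of Timp3 kept an adjusted p of 0.0096 or less without any 1 mouse. Between the mutants none of the 15 was called by limma, beside 0.145% of all genes. An unadjusted p (limma) below 0.05 was held by 6 of the 15 in p27-/- against WT, by 5 in the compound mutants against WT and by 3 between the mutants. For all genes tested these shares were 24.1%, 17.8% and 6.65%. With the posterior lobe score as a covariate, 1 of the 15 was called in each comparison with WT. Of the list genes and neighbours named, Nrcam, Cadm3, Timp3 and Gap43 kept their calls under each alternative that used all mice. Those of Zranb2, Timp4, Mmp15, Mmp24 and Nectin1 were lost with the posterior lobe covariate and with a replicate block. In the fit of only the 2 groups the calls of Cntn4, Nectin1, Mmp15, Mmp24 and, in the compound mutants, Timp4 were lost. The anterior lobe covariate ended those of Cntn4, Nectin1, Mmp24 and, in the compound mutants, Timp4. With no filter Nectin1, Mmp15 and Mmp24 were not called, nor was Nectin1 with Xist as a covariate.

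**Figure D5:**
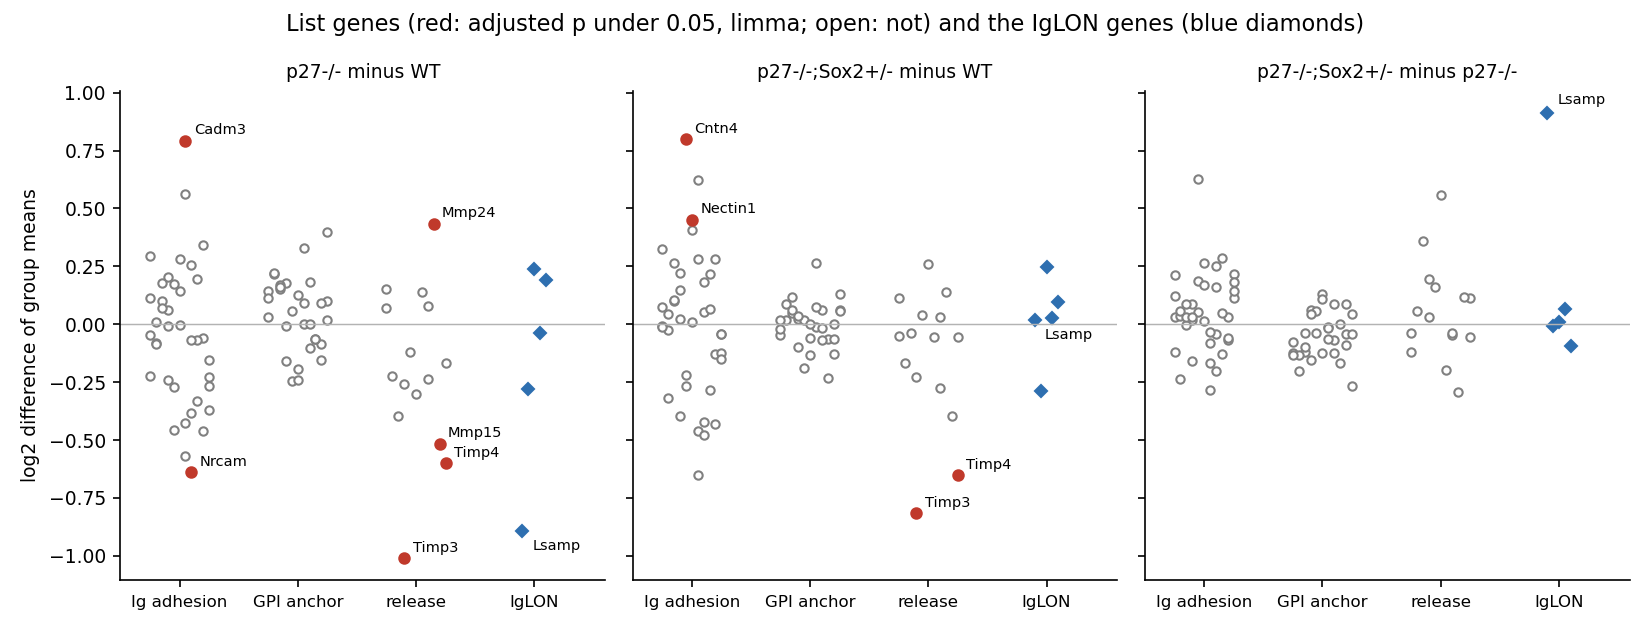
Difference of group means on the log2 scale for every tested gene of the Ig superfamily adhesion (38), GPI anchor (30) and release (15) lists, with 1 point per gene, filled where limma's adjusted p was below 0.05, and for the 5 IgLON genes (diamonds), in the 3 comparisons. Timp3 is lowest at -1.01 in p27-/- against WT, and Lsamp stands at -0.89 there and at 0.91 between the mutants.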

How the data were processed

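The authors aligned the reads with STAR 2.5.2a to GRCm38 (Ensembl 89), counted them per gene with RSEM, run as unstranded, and normalized the counts with DESeq2 1.18.1. The deposited values are these normalized counts per gene and sample on a log2 scale, in 1 table of 29527 genes, of which 22709 were matched to a symbol. The transformation is not named in the sources used here, the values of low genes are pulled together, which makes folds smaller, and the read depth of each sample is unknown from the table. Precision therefore rests on how many mice there are, and no counting interval is given.

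A gene was tested where its mean value was log2 of 10 (3.32) or more, which left 17268 genes. Genotypes, taken from the labels, entered limma 3.58.1 (R 4.3.3), where lmFit and eBayes with trend fitted the 10 samples together and gave two-sided tests with Benjamini-Hochberg adjustment over all tested genes and a threshold of 0.05. The p-values measure the spread between mice. The model was tested on simulated data. Correlations used Python 3.11.15, numpy 2.4.6, pandas 2.3.3 and scipy 1.17.1, with 100000 two-sided permutations, and figures matplotlib 3.10.9. Positions come from the RefSeq annotation of GRCm38, and coding sequences and exon lengths from GENCODE vM1, which belongs to an older build, so no coordinates were taken from it.

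The members, gene lists and tests were chosen with earlier results of these data known. The genes named are the 5 members, the 8 tested genes most correlated and the 4 most anticorrelated with Lsamp, the 3 most correlated with each relative, up to 6 called genes of each list by smallest p, the nearest protein-coding gene on each side of a member, marker genes, Cdkn1b and Sox2. Other genes are marked as named after their values were seen. Alternatives were quantile normalization or median centring, array weights, eBayes without trend, a fit of 2 groups alone, a higher minimum (50) or no filter, a block for the replicate number, a covariate (Xist or the posterior lobe score), and each sample left out. Some genes are not reported here.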

Additional observations from a re-analysis of the deposited data

Results flagged for a closer look

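Of 5 WT groups checked for a sample far from the others, 1 per member, Negr1 had one: WT replicate 3 was at 11.14 while the other 3 lay between 10.78 and 10.80, so that its gap to the nearest was 0.945 of the group's range, above the 95% critical value of Dixon's test. Chance gives such a value in about 1 of 20 groups. The same mouse had the lowest Iglon5 (6.37). Without it the Negr1 difference from WT was 0.05 in p27-/- in place of -0.04, and the gene was not called in either case.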

How the results depend on the processing

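The Lsamp differences between p27-/- and the other groups were -0.97 to -0.82 against WT and 0.85 to 0.99 between the mutants over all alternatives, including single mice left out. Lsamp was picked by these same values, so their unchanged direction is a description and lends no support. The 4 relatives were not called under any alternative in which they were tested (Ntm was below the filter with a mean of at least 50). With compound mutants against WT, Lsamp ran from -0.06 to 0.09. The direction of small differences turned in some settings. With the anterior lobe covariate Ntm between the mutants was 0.0759 and Iglon5 in compound mutants against WT -0.0928. With the posterior lobe covariate that Iglon5 difference was -0.0518 and Negr1 in p27-/- against WT 0.00057. Array weights gave Opcml between the mutants as -0.00036, and the replicate block gave Negr1 in compound mutants against WT as -0.00298. With 1 mouse left out, the ranges that include 0 were, between the mutants, Ntm -0.0958 to 0.0847, Opcml -0.11 to 0.11 and Iglon5 -0.26 to 0.15, and against WT, Negr1 -0.100 to 0.0493 and Iglon5 -0.0230 to 0.357 in p27-/- and Negr1 -0.0104 to 0.116 and Iglon5 -0.12 to 0.34 in compound mutants.

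Counts of called genes moved more. In p27-/- against WT, 1343 of all genes became 831 with no filter, 807 with only the 2 groups compared, 595 under the replicate block, 498 with the posterior lobe covariate, and 403 (without p27-/- replicate 3) to 1709 with 1 mouse left out, with a drop by over 1.5 times without WT replicate 3 or 4 or any p27-/- mouse. In compound mutants against WT, 468 became 260 with the 2 groups, 1240 with array weights, 209 under the block, 189 with the posterior lobe covariate, and 80 (without replicate 2 of the compound mutants) to 658 with 1 left out, with such a drop without WT replicate 4 or any compound mutant. Between the mutants, 25 became 6 with no filter, 45 with the 2 groups, 8 with no trend, 283 with array weights, 15 with quantile normalization, 2 under the block and 0 to 41 with 1 left out (41 without WT replicate 1, 10 or fewer without WT replicate 4 or any mutant). Mice with the same replicate number showed little common deviation (correlations of deviations -0.238 to 0.182), and WT replicate 4 has no partner. Litters and batches are not named in the labels, so whether any mice shared them was not tested.

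Of the adhesion list, p27-/- against WT gave 4 genes with a mean of at least 50, 6 with the anterior lobe covariate and 1 to 6 with 1 mouse left out (6 without WT replicate 2), in place of 2. Compound mutants against WT gave 1 with no filter, the 2 groups, the block, the Xist or the posterior lobe covariate, 9 with array weights and 0 to 3 with 1 left out. Between the mutants array weights gave 1. Of the GPI anchor list, p27-/- against WT gave 1 with no trend, median centring, quantile normalization or the anterior lobe covariate, and 0 to 1 with 1 left out. Of the release list, p27-/- against WT gave 2 with no filter or the 2 groups, 1 under the block or the posterior lobe covariate and 1 to 4 with 1 left out. Compound mutants against WT gave 1 with the 2 groups, the block or either lobe covariate and 0 to 2 with 1 left out, and array weights gave 1 between the mutants. The cause was not tested for any of these. The block changed no call of a relative. Other pseudocounts and count tests could not be applied to log2 values.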
